A study of Mus musculus with 9 samples.

Results

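The 34 genes described here encode the enzymes and carriers that bring pyruvate, glutamate and aspartate carbon into the tricarboxylic acid (TCA) cycle and turn the cycle. They were chosen by function from a list of symbols, with earlier results of these data known. All 34 are among the 12003 genes of the deposited table. The cells were alveolar macrophages, which live in the air spaces of the lung, taken from untreated mice of C57BL/6 background aged 8 to 12 weeks. Each of the 9 libraries came from lavage cells of 5 to 7 sex- and age-matched mice, pooled and purified with anti-CD11c beads, so a pool and not a mouse is the replicate. Floxed controls were Vhl(flox/flox) / CD11c (+/+) and carried no Cre. Cre controls were Vhl(+/+) / CD11c (cre/+). Knockouts were Vhl(flox/flox) / CD11c (cre/+), with 3 pools in each group. CD11c is also made by dendritic cells, so Cre driven from CD11c is not limited to macrophages, and the bead selection does not separate the 2 cell types.

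In the TCA cycle, acetyl-CoA joins oxaloacetate to form citrate, which is oxidised stepwise back to oxaloacetate while electrons pass to the respiratory chain. Pyruvate enters through the mitochondrial pyruvate carrier and the pyruvate dehydrogenase complex, which kinases switch off and phosphatases switch back on. Glutamine carbon enters as oxoglutarate, and carriers and aminotransferases exchange citrate, malate, oxoglutarate and aspartate with the cytosol. VHL marks hypoxia-inducible factors (HIF) for destruction, and HIF is known for raising glycolytic enzymes and Pdk1, a kinase that holds pyruvate back from the cycle.

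Values are normalized reads, which are read counts scaled to library size without correction for gene length. Changes are log2 fold changes from limma on log2(value + 1), and a gene was called when its adjusted p over all 12003 genes was under 0.05. Vhl itself stood at 14.9 to 25.3 normalized reads in the 6 controls and at 2.02 to 2.52 in the knockouts. The libraries held 18201116 to 25861174 reads. The members were well covered, with at least 143 reads in every library and a median of 91.1 normalized reads in the controls, against 26.0 over all genes. Mitochondrially encoded transcripts took 2.67 to 5.59% of normalized reads in controls and 1.77 to 2.39% in knockouts. All 13 alveolar macrophage markers were measured, and they did not move as 1 group: limma called 5 higher and 3 lower. Their summed level was 28123 to 33222 in controls and 37996 to 50484 in knockouts, most of it from Chil3 (means of 17872 and 30308), while Siglecf, Car4 and Krt79 fell. All 10 dendritic cell markers were lower in knockouts, with a summed level of 121 to 335 in controls and 51.7 to 58.7 in knockouts, and none was at 0. Of the 7 measured of 8 epithelial markers 2 were called lower, and the 7 summed to 91.9 to 271 in controls and 57.3 to 86.1 in knockouts. Of 5 measured of 7 interstitial macrophage markers 4 were lower (sums of 22.6 to 57.7 in controls and 16.1 to 25.2 in knockouts), and of 5 monocyte markers 2 were higher (sums of 37.5 to 131 and 55.8 to 75.0). None of the 5 neutrophil markers was called, but their sums varied widely between pools, from 49.3 to 580 in controls and from 62.4 to 293 in knockouts. The part of these marker differences in the results that follow was not tested. In bulk RNA, fewer cells of a type and less RNA per cell cannot be told apart.

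Between knockouts and controls, 14 of the 34 genes differed, each by a modest amount. Against both controls, limma called 6 members higher and 8 lower, or 41.2% of them, while 39.8% of all genes were called (19.7% higher and 20.2% lower). The share of members called was thus near the background. The same 14 members were those whose knockout libraries did not overlap any control library (6 above and 8 below), which held for 37.7% of all genes (19.3% above and 18.5% below). The 6 that rose were the kinase genes Pdk2 and Pdk3, Idh2, Suclg2 and the carrier genes Slc25a1 and Slc25a11. The 8 that fell were Mpc1, Cs, Idh3a, Idh3b, Sdhb, Mdh2, Mdh1 and Got1. With library totals in place of the deposited scaling, the counts were 5 higher and 11 lower, and those of all genes went from 2361 higher and 2420 lower to 1925 higher and 2838 lower. The count of 8 lower members fell to 5 without Cre control 3, to 5 without knockout 2 and to 4 without knockout 3.

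The changes were small beside those of the table as a whole. The 2 sets were not matched for level, with control medians of 91.1 normalized reads for members and 26.0 for all genes. Only Mpc1 was both called and changed by at least 1.5-fold, or 2.94% of the members, against 14.8% of all genes. None of the 34 was called with a change of 2-fold or more, against 6.41% of all genes. The median absolute log2 fold change was 0.11 over the members and 0.20 over all genes. The signed medians were -0.04 and -0.00. Over the 39 measured pathway genes outside the members, described below, the median absolute change was 0.22, with changes from -1.18 to 2.42.

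**Figure D1:**
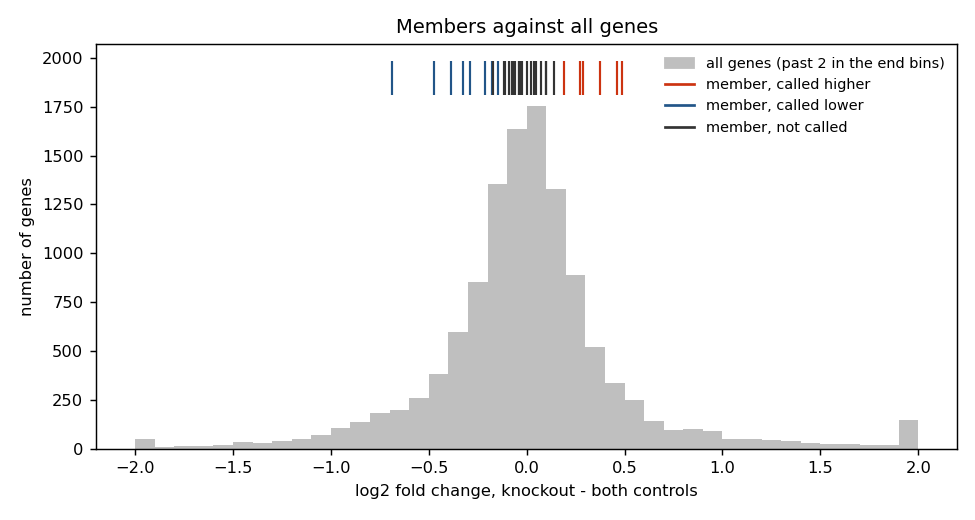
Histogram of log2 fold changes (knockout minus both controls, limma) of all 12003 genes, with changes past 2 placed in the end bins, and 1 tick for each of the 34 members. The members lie between -0.69 (Mpc1) and 0.49 (Slc25a1), inside the central part of the distribution.

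**Figure D2:**
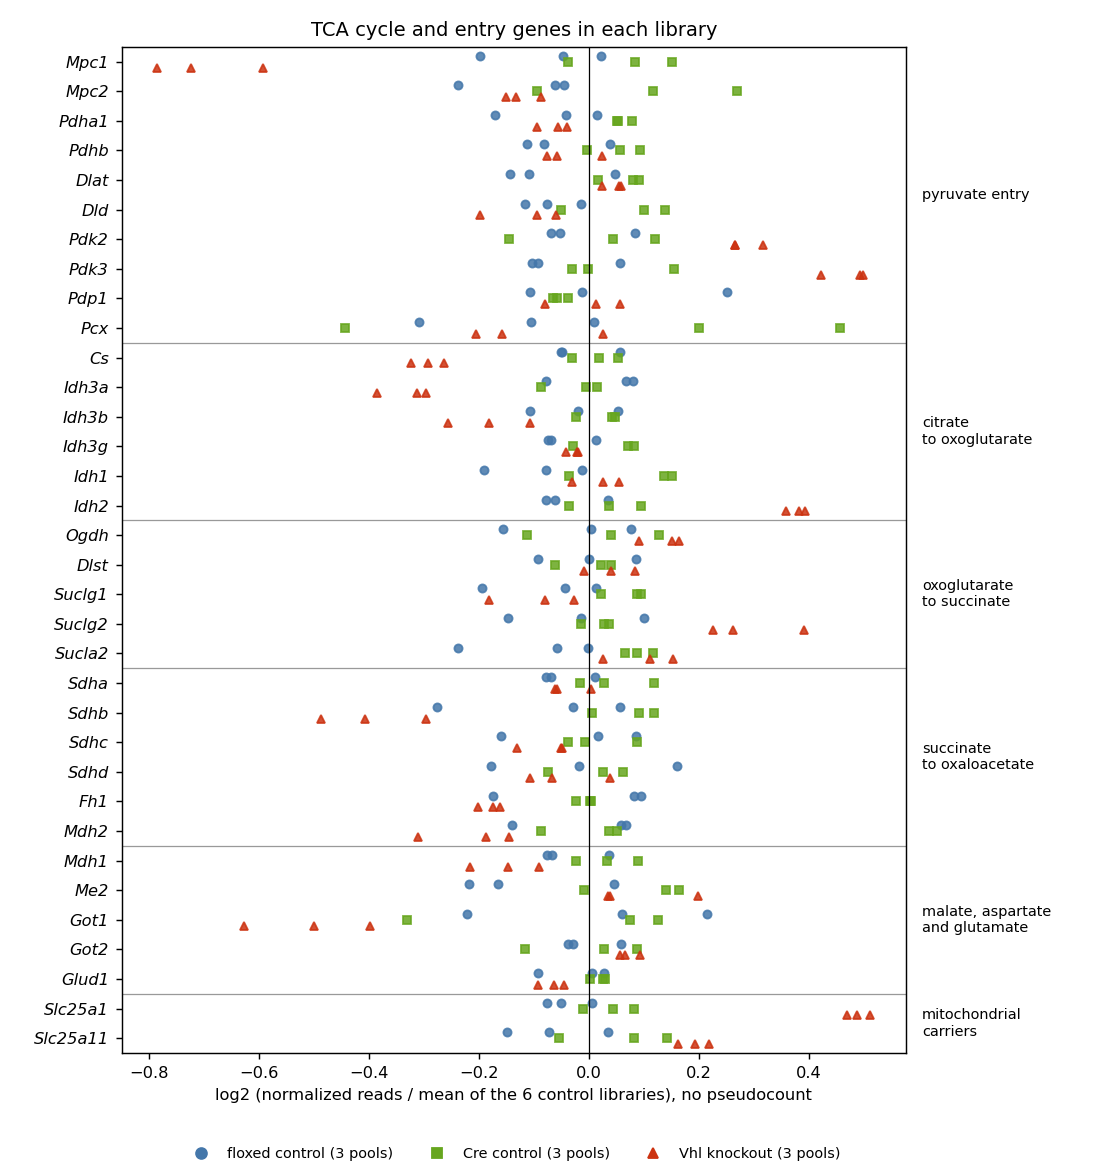
Each of the 34 members (rows, grouped by step) in each of the 9 libraries, as log2 of normalized reads over the mean of the 6 controls, with no pseudocount. Knockout triangles stand clear of both control groups for 14 genes and among the controls for the other 20.

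At the entry of pyruvate, the clearest fall was that of Mpc1, which encodes a subunit of the mitochondrial pyruvate carrier (ENSMUSG00000023861, chr17:8282904-8297661, GRCm38). Mpc1 stood at 106, 112 and 95.9 normalized reads in floxed controls, at 107, 122 and 117 in Cre controls and at 72.9, 66.5 and 63.8 in knockouts. Every knockout library was below every control, and the mean fell by 38.4% (log2 fold change -0.69 with an SE of 0.0684, adjusted p = 3.6e-05 by limma). Its partner Mpc2, with which it forms the carrier, stood at 39.1 to 55.7 in controls and 41.6 to 43.5 in knockouts (log2 fold change -0.11, adjusted p = 0.296 by limma). The ratio of Mpc1 to Mpc2 reads, which does not depend on library scaling, was 1.92 to 2.82 in controls and 1.53 to 1.68 in knockouts, without overlap. This ratio and those that follow were chosen after the values were seen and are given without a test.

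The catalytic subunits of pyruvate dehydrogenase showed no called change. Pdha1 and Pdhb encode the E1 subunits, Dlat the E2 core and Dld the E3 subunit, which oxoglutarate dehydrogenase also uses. Their log2 fold changes were -0.06, -0.03, 0.05 and -0.11, with limma adjusted p of 0.372, 0.646, 0.524 and 0.145. Dld was called lower only with library totals in place of the deposited scaling (limma adjusted p = 0.0369). Pdha1 shares 603 exon bases with Map3k15 on the opposite strand, and the sources used here do not give the strand setting. Map3k15 stood at 1.28 normalized reads in controls. Pcx encodes pyruvate carboxylase, which makes oxaloacetate from pyruvate. It was the lowest member at 9.0 ± 2.10 normalized reads in controls (SD, n = 6) and 8.34 ± 0.715 in knockouts (SD, n = 3). It was also the most variable, with a coefficient of variation of 23.4% over the controls against a median of 6.64% for the members, and its log2 fold change of -0.08 had a 95% interval of -0.43 to 0.28.

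Both kinase members rose, where 19.7% of all genes were called higher. Pdk3 (ENSMUSG00000035232, chrX:93764607-93832201) stood at 27.6, 30.9 and 27.8 normalized reads in floxed controls, at 33.1, 29.7 and 29.1 in Cre controls and at 39.8, 42.0 and 41.8 in knockouts. All 3 knockouts exceeded all 6 controls, with a mean 38.7% higher (log2 fold change 0.46 with an SE of 0.0638, adjusted p = 0.000323 by limma). Pdk2 (ENSMUSG00000038967, chr11:95026258-95041354) stood at 18.9, 21.0 and 19.1 in floxed controls, at 21.6, 17.9 and 20.5 in Cre controls and at 23.9, 24.7 and 23.9 in knockouts. Its groups did not overlap either (log2 fold change 0.27 with an SE of 0.0723, adjusted p = 0.0133 by limma), and its call was lost without knockout library 2 (limma adjusted p = 0.0568). The opposing phosphatase Pdp1 was level, at 14.3 to 18.4 in controls and 14.6 to 16.0 in knockouts (log2 fold change 0.00, 95% interval -0.19 to 0.19).

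The 2 kinase genes outside the members moved much further. Pdk1 stood at 45.7 to 57.1 normalized reads in the 6 controls and rose to 246, 274 and 284 in knockouts (log2 fold change 2.42 with an SE of 0.0752, adjusted p = 1.2e-08 by limma). Pdk4 stood at 12.4 to 20.6 in controls and rose to 42.6, 62.8 and 49.0 in knockouts (log2 fold change 1.61 with an SE of 0.133, adjusted p = 9.58e-06 by limma). The 4 kinase genes together held 115 ± 9.06 normalized reads in controls (SD, n = 6) and 385 ± 28.2 in knockouts (SD, n = 3). The share of these reads from Pdk1 went from 42.9 ± 0.962% to 69.7 ± 1.70%, so Pdk2 and Pdk3 took a smaller share in knockouts even though both rose.

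**Figure D3:**
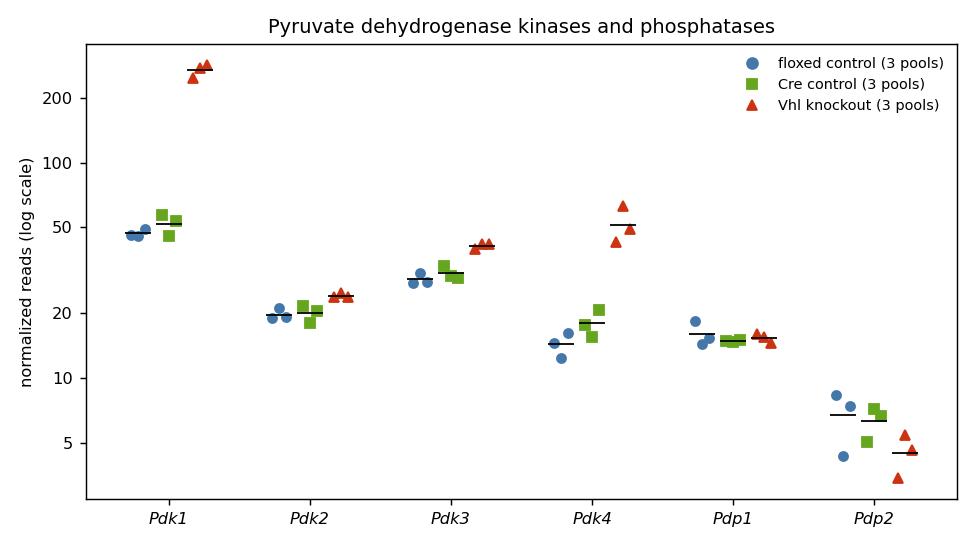
Normalized reads (log axis) of the 4 pyruvate dehydrogenase kinase genes and 2 phosphatase genes, 1 symbol per library, with a line at each group mean. The knockout libraries lie above all controls for the 4 kinases, while Pdp1 and Pdp2 overlap between groups.

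Levels of different genes can be compared only per length. Per kilobase of annotated exon, the order of the kinases in controls was Pdk3 (11.6 ± 0.798 normalized reads per kilobase, SD, n = 6), Pdk1 (6.36 ± 0.611), Pdk2 (6.27 ± 0.442) and Pdk4 (4.60 ± 0.796), in which Pdk1 and Pdk2 did not differ beyond their spread. In knockouts the order was Pdk1 (34.5 ± 2.54, SD, n = 3), Pdk3 (16.1 ± 0.476), Pdk4 (14.7 ± 2.93) and Pdk2 (7.63 ± 0.155), in which Pdk3 and Pdk4 did not differ beyond their spread. The phosphatase Pdp1 was at 3.42 per kilobase in both groups. Among all members in controls, Idh1 (133 per kilobase) and Glud1 (127) were highest and Pcx (1.89), Pdp1 and Pdk2 lowest. These orders were the same when the length of the principal transcript was used. The gap between Pdk3 and Pdk4 in knockouts was then wider, at 19.5 and 14.8 normalized reads per kilobase.

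At the first steps of the cycle, citrate synthase fell. Cs (ENSMUSG00000005683, chr10:128337734-128362479) stood at 245, 263 and 244 normalized reads in floxed controls, at 248, 256 and 262 in Cre controls and at 211, 206 and 202 in knockouts. The groups were well apart, and the mean fell by 18.4% (log2 fold change -0.29 with an SE of 0.0466, adjusted p = 0.000796 by limma). Outside the members, Aco1, which encodes cytosolic aconitase and the iron sensor IRP1, fell from 165 ± 7.00 to 141 ± 3.57 (log2 fold change -0.23, adjusted p = 0.00364 by limma). Aco1 was named after its values were seen.

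Among the isocitrate dehydrogenase genes, 2 fell, 1 rose and 2 were not called. Of all genes, 39.8% were called (19.7% higher and 20.2% lower). The NAD-dependent enzyme of the cycle is built from the products of Idh3a, Idh3b and Idh3g. Idh3a, its catalytic subunit gene (ENSMUSG00000032279, chr9:54586334-54604661), stood at 58.5, 58.0 and 52.4 normalized reads in floxed controls, at 55.9, 52.1 and 55.1 in Cre controls and at 42.3, 45.0 and 44.5 in knockouts, without overlap (log2 fold change -0.32 with an SE of 0.0553, adjusted p = 0.00117 by limma). Idh3b stood at 101, 95.6 and 90.0 in floxed controls, at 99.8, 95.4 and 100.2 in Cre controls and at 90.0, 85.5 and 81.2 in knockouts. It fell too (log2 fold change -0.18 with an SE of 0.0537, adjusted p = 0.0237 by limma), but its lowest control and highest knockout both round to 90.0. Its limma adjusted p was 0.0526 without Cre control 3, 0.0726 without knockout 2 and 0.114 without knockout 3. Idh3g was level, at 103 to 115 in controls and 106 to 107 in knockouts (log2 fold change -0.03).

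Idh2, the NADP-dependent enzyme of the mitochondrion, went the other way (ENSMUSG00000030541, chr7:80094846-80115392). It stood at 81.4, 88.1 and 82.4 normalized reads in floxed controls, at 91.9, 83.9 and 88.2 in Cre controls and at 112, 110.2 and 113 in knockouts (log2 fold change 0.38 with an SE of 0.0487, adjusted p = 0.000212 by limma). The ratio of Idh2 to Idh3a reads was 1.39 to 1.64 in controls and 2.45 to 2.65 in knockouts. Idh1, the cytosolic NADP form, stood at 324 to 411 in controls and 362 to 384 in knockouts (log2 fold change 0.02, adjusted p = 0.806 by limma).

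From oxoglutarate to succinate, 1 of 5 genes was called higher and none lower, where the shares over all genes were 19.7% and 20.2%. Suclg2 encodes the GDP-forming subunit of succinyl-CoA ligase (ENSMUSG00000061838, chr6:95473009-95718800). It stood at 35.8, 42.5 and 39.2 normalized reads in floxed controls, at 40.6, 40.4 and 39.2 in Cre controls and at 46.3, 47.5 and 51.9 in knockouts, without overlap (log2 fold change 0.29 with an SE of 0.0651, adjusted p = 0.00586 by limma). The ADP-forming subunit gene Sucla2 and the shared alpha subunit gene Suclg1 had log2 fold changes of 0.10 and -0.09 (limma adjusted p = 0.243 and 0.267). Ogdh and Dlst, which encode the E1 and E2 parts of oxoglutarate dehydrogenase, had log2 fold changes of 0.14 and 0.04 (limma adjusted p = 0.142 and 0.59). Suclg1 and Suclg2 lie on chromosome 6, as Vhl does. Neither was called between the 2 controls, which differ in whether that chromosome carries the floxed allele (log2 fold changes, Cre minus floxed, 0.14 and 0.04, limma adjusted p = 0.63 and 0.903). These controls also differ in Cre, and limma called only 0.167% of all genes between them. An effect of the floxed allele on these genes was not tested separately.

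From succinate to oxaloacetate, all 6 genes had a negative log2 fold change, as 50.4% of all genes did, and 2 were called lower, a share of 33.3% against 20.2% of all genes called lower and 39.8% called in either direction. Succinate dehydrogenase is both an enzyme of the cycle and complex II of the respiratory chain. Sdhb, its iron-sulphur subunit gene (ENSMUSG00000009863, chr4:140961203-140979193), stood at 89.8, 95.2 and 75.6 normalized reads in floxed controls, at 91.9, 99.4 and 97.6 in Cre controls and at 74.6, 69.0 and 65.3 in knockouts. Floxed control 3 was the lowest control and close to knockout 1, but the groups did not overlap (log2 fold change -0.39 with an SE of 0.0761, adjusted p = 0.00272 by limma). The flavoprotein subunit gene Sdha and the membrane anchor genes Sdhc and Sdhd had log2 fold changes of -0.04, -0.07 and -0.04 (limma adjusted p = 0.584, 0.38 and 0.692). The ratio of Sdhb to Sdha reads was 0.279 to 0.341 in controls and 0.228 to 0.272 in knockouts.

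Mdh2, the mitochondrial malate dehydrogenase gene that closes the cycle, fell from 181 ± 10.9 normalized reads in controls (SD, n = 6) to 157 ± 9.16 in knockouts (SD, n = 3). Floxed controls stood at 190.3, 189 and 165, Cre controls at 186, 171 and 188, and knockouts at 164, 159 and 146, so floxed control 3 and knockout 1 were nearly level. This was a log2 fold change of -0.21 with an SE of 0.0646 (adjusted p = 0.0257 by limma). It was not called against either control alone (limma adjusted p = 0.0541 against floxed and 0.0506 against Cre controls). Its limma adjusted p was 0.0514 without floxed control 2, 0.0568 without Cre control 3, 0.062 without knockout 2 and 0.124 without knockout 3. Fh1, fumarate hydratase, missed the threshold at 52.2 ± 3.40 against 46.1 ± 0.646 (log2 fold change -0.17, adjusted p = 0.0563 by limma). It was called lower without floxed control 3 (limma adjusted p = 0.00424), with library totals (limma adjusted p = 0.00912) and by DESeq2 (adjusted p = 0.0458).

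Among the 5 genes of malate, aspartate and glutamate exchange, the 2 cytosolic enzymes fell. The share called was 40.0%, near the 39.8% of all genes (20.2% lower). Got1, the cytosolic aspartate aminotransferase gene (ENSMUSG00000025190, chr19:43499752-43524605), stood at 31.1, 28 and 23.0 normalized reads in floxed controls, at 21.3, 29.2 and 28.2 in Cre controls and at 20.3, 18.9 and 17.4 in knockouts. Controls were widely spread, Cre control 1 lay next to knockout 1, and the mean fell by 29.6% (log2 fold change -0.47 with an SE of 0.12, adjusted p = 0.0103 by limma). Without knockout 3 the limma adjusted p was 0.0536. Its mitochondrial counterpart Got2 stood at 91.2 to 105 in controls and 103 to 105 in knockouts (log2 fold change 0.07, adjusted p = 0.32 by limma).

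Mdh1, the cytosolic malate dehydrogenase gene, fell from 146 ± 6.59 to 132 ± 5.75 normalized reads. It fell by 9.89%, the smallest change in means among the called members (log2 fold change -0.15 with an SE of 0.0508, adjusted p = 0.0404 by limma). That call was lost without floxed control 2, Cre control 2, Cre control 3, knockout 2 or knockout 3, with limma adjusted p of 0.0667 to 0.174. Floxed controls stood at 139.5, 149.8 and 139, Cre controls at 144, 149 and 155, and knockouts at 137, 126 and 132, without overlap but with a narrow gap. Mdh1 shares 52 exon bases with Wdpcp on the opposite strand, which was at 3.38 normalized reads in controls. Me2, the mitochondrial malic enzyme gene, and Glud1, glutamate dehydrogenase, the step by which glutamate carbon enters as oxoglutarate, were not called (log2 fold changes 0.10 and -0.07, limma adjusted p = 0.32 and 0.305). Glud1 was called lower with library totals (limma adjusted p = 0.0492).

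Both genes of the carrier step rose, where 19.7% of all genes were called higher. The 5 measured mitochondrial carrier genes outside the members did not share this rise. None of them was called higher, Slc25a12 was called lower, and 4 of the 5 had a negative log2 fold change. Slc25a1 encodes the citrate carrier, which moves citrate to the cytosol (ENSMUSG00000003528, chr16:17925223-17928219). It stood at 74.1, 77.0 and 72.8 normalized reads in floxed controls, at 79.0, 76.2 and 81.2 in Cre controls and at 109, 108 and 106 in knockouts. The knockout mean was 40.5% higher, the largest rise among the members, and the groups were far apart (log2 fold change 0.49 with an SE of 0.0446, adjusted p = 2.04e-05 by limma). Acly, which splits cytosolic citrate into acetyl-CoA and oxaloacetate, rose in the same libraries from 414 ± 13.1 to 1401 ± 72.8 normalized reads (log2 fold change 1.76 with an SE of 0.0552, adjusted p = 1.22e-08 by limma). Slc25a11, the oxoglutarate-malate carrier gene, stood at 101, 109 and 96.1 in floxed controls, at 118, 103 and 113 in Cre controls and at 122, 119 and 124 in knockouts. It rose less (log2 fold change 0.19 with an SE of 0.0587, adjusted p = 0.0251 by limma). It was not called against Cre controls alone (limma adjusted p = 0.158), with library totals (limma adjusted p = 0.0601) or without knockout 1, 2 or 3 (limma adjusted p = 0.0713, 0.0583 and 0.0932). Slc25a11 shares 189 exon bases with Rnf167 on the opposite strand, which stood at 35.9 normalized reads in controls and 39.5 in knockouts.

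**Figure D4:**
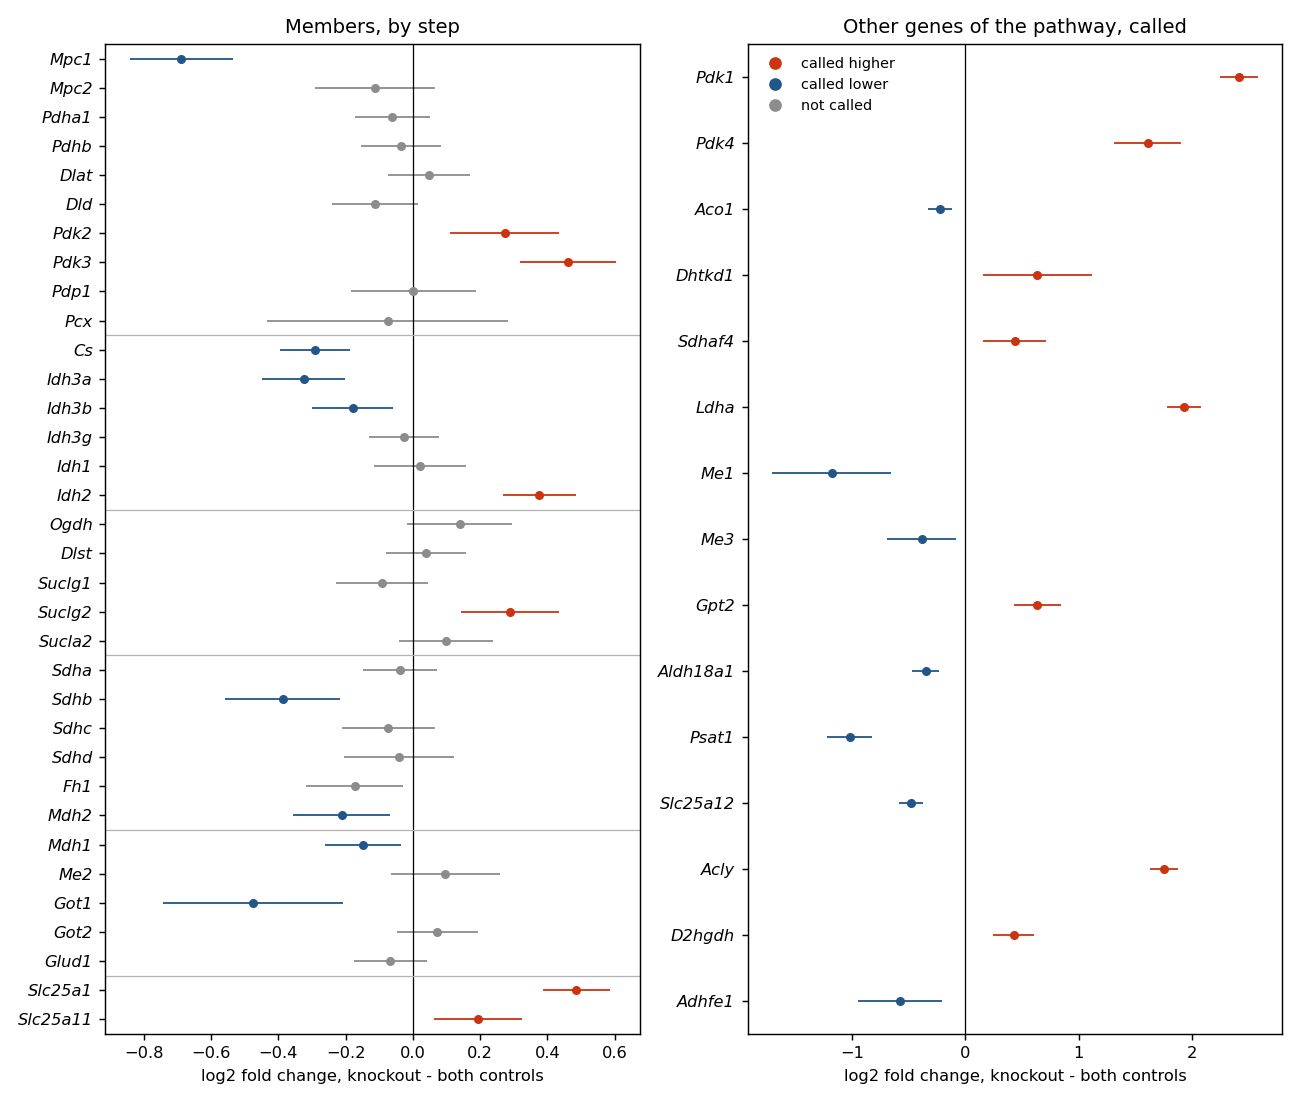
Log2 fold change (knockout minus both controls, limma) with its 95% interval, for the 34 members by step (left) and the 15 other genes of the pathway that were called (right, wider axis). Red and blue mark genes called higher and lower, and grey those not called. On the left every value lies between -0.69 and 0.49, while on the right Pdk1, Ldha, Acly and Pdk4 exceed 1.5.

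Of the 6 members that rose, 3 hold the letters ACGTG, the core letters of the element that HIF is known to bind, in the window from 250 bases before to 50 after a start in the RefSeq promoter table (GRCm38.p6). They are shown because they are the members called higher with such letters. The 250 bases before the start are printed 5′ to 3′, with ACGTG or its reverse complement CACGT in capitals. In Pdk2 and Slc25a1 both overlap as the palindrome CACGTG. It begins 126 bases before the start in Pdk2 (the first of 2 listed starts is not shown) and 239 bases before it in Slc25a1, which has a further match after the start that is not printed. In Pdk3 the letters begin 53 bases before the start.
Pdk2, chr11:95041372-95041621, minus strand: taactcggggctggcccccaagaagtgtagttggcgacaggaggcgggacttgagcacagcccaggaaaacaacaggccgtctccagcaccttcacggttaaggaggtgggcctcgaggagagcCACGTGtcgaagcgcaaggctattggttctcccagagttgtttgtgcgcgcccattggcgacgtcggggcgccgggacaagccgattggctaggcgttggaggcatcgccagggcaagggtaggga
Pdk3, chrX:93832151-93832400, minus strand: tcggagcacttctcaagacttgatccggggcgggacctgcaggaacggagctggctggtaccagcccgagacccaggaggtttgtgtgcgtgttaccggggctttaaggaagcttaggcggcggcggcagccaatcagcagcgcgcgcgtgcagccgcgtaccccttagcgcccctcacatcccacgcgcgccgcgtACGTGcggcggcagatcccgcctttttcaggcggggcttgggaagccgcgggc
Slc25a1, chr16:17928220-17928469, minus strand: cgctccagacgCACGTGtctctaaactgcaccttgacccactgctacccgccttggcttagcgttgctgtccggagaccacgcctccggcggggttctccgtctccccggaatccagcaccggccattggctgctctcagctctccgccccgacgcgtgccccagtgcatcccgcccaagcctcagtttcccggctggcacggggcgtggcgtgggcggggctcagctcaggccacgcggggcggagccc
The table held promoters for 30 of the 34 members, and 9 of the 30 had the letters on either strand. That count was 3 of 6 among members called higher, 1 of 7 among those called lower (Mdh1) and 5 of 17 among those not called. Over the whole table, 21.8% of 27025 genes held them in any listed promoter. The windows of Pdk1 and Pdk4 did not hold these letters. A match describes the letters only and is not evidence that a factor binds.

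Ratios of partner genes within a library restate the splits above. The pairs were chosen after the values were seen, so the ratios are no separate support. Besides Mpc1 to Mpc2, Idh2 to Idh3a and Sdhb to Sdha, the ratio of Got1 to Got2 reads was 0.203 to 0.321 in controls and 0.168 to 0.193 in knockouts. By contrast, the ratio of Suclg2 to Sucla2 reads overlapped, at 0.887 to 1.11 in controls and 1.0 to 1.16 in knockouts, and so did that of Mdh2 to Mdh1.

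**Figure D5:**
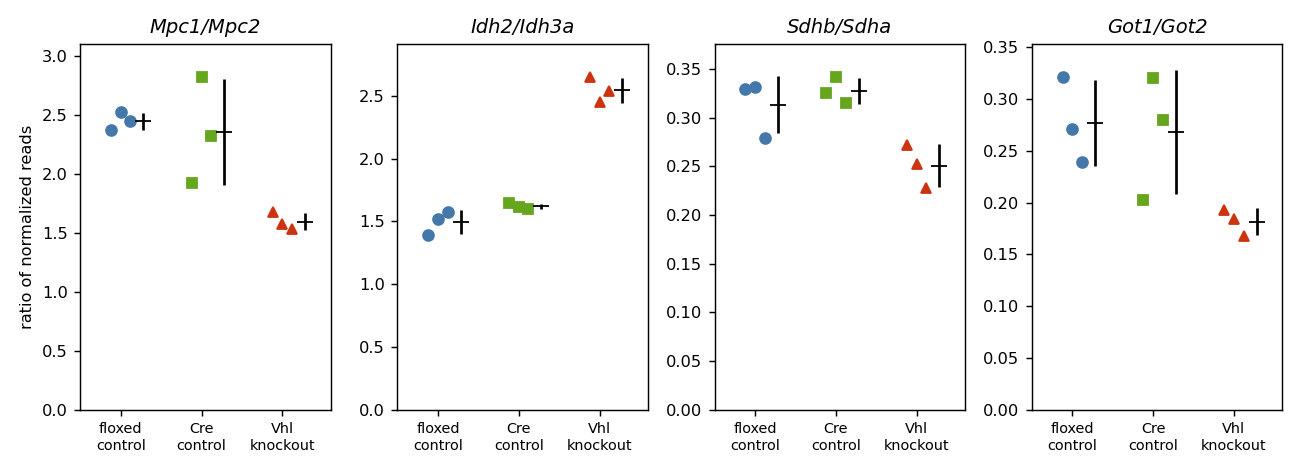
Ratio of normalized reads of partner genes in each library, with the group mean and SD (n = 3 pools) beside the symbols. For all 4 pairs the knockout libraries do not overlap the 6 controls: Idh2/Idh3a is higher in knockouts, and Mpc1/Mpc2, Sdhb/Sdha and Got1/Got2 are lower. The pairs were chosen after the values were seen.

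For the 20 members that were not called, the lack of a call does not mean the lack of a change. Apart from Pcx, their 95% intervals lay between -0.32 (Fh1) and 0.29 (Ogdh) on the log2 scale. Some called changes were smaller than these bounds, such as those of Mdh1 (-0.15) and Slc25a11 (0.19). The intervals are not adjusted for the number of genes, and that of Fh1 (-0.32 to -0.03) lay wholly below 0.

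Most calls held against each control taken alone. Against floxed controls, which also carry the floxed alleles, limma called 6 members higher and 5 lower (34.3% of all genes were called, 17.5% higher and 16.8% lower). Against Cre controls, which also carry Cre, it called 5 higher and 7 lower (34.0% of all genes, 16.3% higher and 17.7% lower). Without knockout 3 each comparison called 7 members, and without Cre control 3 that against Cre controls also called 7. The 2 comparisons share the knockout libraries. Called the same way in both were 10 members, where 27.3% of all genes were. Pdk2, Pdk3, Idh2, Suclg2 and Slc25a1 were higher, and Mpc1, Cs, Idh3a, Sdhb and Got1 lower. Mpc1, for example, had log2 fold changes of -0.62 against floxed and -0.76 against Cre controls. Between the 2 controls no member was called by limma, edgeR or DESeq2 (0.167% of all genes were, by limma). At an unadjusted limma p under 0.05 there were 4. The differences (Cre minus floxed) ran from -0.09 to 0.21, the median was 0.07 over the members and 0.01 over all genes, and the smallest limma adjusted p was 0.612. They were above 0 for 30 of the 34 members, and below 0 for 11.8% of them against 46.9% of all genes. The knockout log2 fold change was above 0 for 18 members against floxed controls and for 11 against Cre controls.

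The other genes of the pathway were read from a wider list, of which 39 of 45 were measured and 6 (Ogdhl, Ldhb, Gls2, Abat, Slc25a18 and Hao1) are not analysed here. Against both controls, 8 rose, 7 fell and 24 were not called. The share called was 38.5%, near the 39.8% of all genes. Besides Pdk1, Acly and Pdk4, the lactate dehydrogenase gene Ldha rose from 482 ± 34.0 normalized reads in controls to 1835 ± 27.3 in knockouts (log2 fold change 1.93, adjusted p = 1.97e-08 by limma), and Gpt2, the mitochondrial alanine aminotransferase gene, from 13.4 ± 1.97 to 21.2 ± 1.82 (log2 fold change 0.64, adjusted p = 0.000427 by limma). Psat1, which uses glutamate in serine synthesis, fell from 28.9 ± 3.14 to 13.7 ± 0.865 (log2 fold change -1.02, adjusted p = 1.31e-05 by limma). Slc25a12, an aspartate-glutamate carrier gene, fell from 51.8 ± 2.75 to 36.7 ± 1.08 (log2 fold change -0.48, adjusted p = 3.82e-05 by limma), and Aldh18a1, which turns glutamate towards proline, from 54.7 ± 2.6 to 42.7 ± 2.16 (log2 fold change -0.35, adjusted p = 0.000638 by limma).

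The glutamine transporter gene Slc1a5 had a log2 fold change of -0.07 and the glutamine synthetase gene Glul of -0.15, neither of them called (limma adjusted p = 0.646 and 0.25). Both were named after their values were seen.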

How the data were processed

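Poly(A) RNA of 9 pools (3 per genotype) was sequenced as single reads, per the labels' protocols. The submitters' processing notes name the genome build GRCm38 and the tools RSEM 1.2.3, cutadapt 1.3 and CASAVA 1.8.2. The annotation, strand and scaling method used are not stated there. The authors deposited 1 table of scaled signal values. Each value was a whole number of reads times 1 factor per library (100% within 0.01 read), so reads could be recovered. The authors' factors divide by library total and by a further factor of 0.967 to 1.08, which hides any shift common to all genes. The deposited table had been filtered: every gene reaches 0.962 in at least 3 libraries, and all 34 members passed. Groups came from the genotype label, and 0 sample columns were left out.

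Limma 3.58.1 in R 4.3.3 was fitted to log2(value + 1) of all 9 libraries and 12003 genes, with 1 mean per genotype and an intensity trend. The planned scale was kept because values were not raw counts. Tests were two-sided with Benjamini-Hochberg adjustment over all genes, and the script was tested on simulated data. No 2 libraries of a group agreed within sampling noise. P-values measure the spread between pools. Symbols, exons and coordinates came from GENCODE M21 (GRCm38).

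Alternatives were a pseudocount of 0.25, a filter at 5 normalized reads in 3 libraries, library totals, edgeR 4.0.16 and DESeq2 1.42.0 on recovered reads, a replicate block, fits of the compared groups only, and each library left out. Every member is accounted for; library values are given for members called against both controls whose groups do not overlap, and other pathway genes were named by smallest adjusted p (up to 8). Some genes of the wider pathway list are not reported here. The members, lists and rules were chosen with earlier results of these data known.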

Additional observations from a re-analysis of the deposited data

How the results depend on the processing

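Counts of called members stayed within 1.5 times the main count across tools, filters and scalings. Against both controls, the count of higher members was 4 to 6 and that of lower members 4 to 9 with 1 library left out at a time. The lower count of 8 fell to 5 without Cre control 3, to 5 without Vhl knockout 2 and to 4 without Vhl knockout 3. Against floxed controls the count of 11 ranged from 7 (without knockout 3) to 13 with a library left out, and against Cre controls the count of 12 ranged from 7 (without Cre control 3 or knockout 3) to 14. EdgeR called 6 higher and 8 lower, and DESeq2 6 and 9. Without library 1 of each genotype, an alternative chosen after seeing the data, 5 were higher and 7 lower. The direction of no called member reversed in the 16 alternatives against both controls. The calls of Mpc1, Pdk3, Cs, Idh3a, Idh2, Suclg2, Sdhb and Slc25a1 held in all 16. Pairing by replicate number was not used, since that asked for a correlation over 0.1 in every same-numbered pair of pools and no label says what a number marks. Correlations of same-numbered pools' deviations ran from -0.09 to 0.52 over 9 pairs, and those of other pairs from -0.44 to 0.38. The 3 pairs of number 1 stood at 0.20, 0.52 and 0.32, so those libraries deviated together, while floxed control 3 correlated best with knockout 2 (0.38). With the replicate number as a block, 6 members were higher and 7 lower, Mdh1 being lost (limma adjusted p = 0.0602). Library totals moved the median log2 fold change of all genes from -0.00 to -0.05. Mdh2, Mdh1 and Slc25a11 lost their calls most often, in 5, 6 and 5 of the 16. Pcx, the least covered member, had the widest interval.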

Other observations

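Acod1, which makes itaconate from the cycle intermediate aconitate, varied by library number more than by genotype. It stood at 120, 33.2 and 30.3 normalized reads in floxed controls, at 59.0, 11.7 and 9.10 in Cre controls and at 86.3, 8.47 and 9.56 in knockouts. In each genotype library 1 was the highest. The knockout difference was not called (log2 fold change -0.62 with an SE of 0.808, adjusted p = 0.581 by limma). This gene was named after its values were seen, and the labels do not say what the library numbers stand for.

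The NADP-linked malic enzyme gene Me1, which is cytosolic, fell from 6.87 ± 3.31 normalized reads in controls (SD, n = 6) to 2.25 ± 0.392 in knockouts (SD, n = 3; log2 fold change -1.18, adjusted p = 0.003 by limma). Controls were uneven, at 3.85 to 5.73 in the floxed pools and 4.68, 11.8 and 10.3 in the Cre pools. D2hgdh, which encodes a 2-hydroxyglutarate dehydrogenase, rose from 18.5 ± 1.33 to 25.1 ± 1.79 (log2 fold change 0.42, adjusted p = 0.00201 by limma). These genes, too, were named after their values were seen.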
